A study of Mus musculus with 8 samples.

Results

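The genes described here encode proteins of the cytosolic ribosome, the initiation and elongation factors that work with it, and proteins that assemble or accompany it, measured in CD4+CD25+ T cells of pregnant mice with or without the gene for interleukin 10. The set named 38 genes, 23 ribosomal proteins, 11 factors and 4 associated proteins, and a gene was taken where a probe set of the array was annotated with its symbol alone. This found 31 of the 38 genes, 19 ribosomal proteins, 9 factors and 3 associated proteins, among 6986 genes tested. Rpl31, Rpl23 and Rpl36al had only a probe set that names several genes, and Rpl3, Eif1, Eif2s1 and Gnb2l1 (now Rack1) were not analysed here. Of several probe sets for a gene, the brightest on average was used.

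Expression was measured on Affymetrix Mouse Gene 2.0 ST arrays in cells sorted from the uterus-draining para-aortic lymph nodes on day 9.5 after mating. The labels call the cells Treg, for regulatory T cells. One group was 4 arrays of IL10-/- mice, which carry the Il10 mutation on a C57BL/6 background through backcrossing and drank oxytetracycline at 2 mg/ml against colitis. The other was 4 arrays of IL10+/+ mice of the C57BL/6 strain, for which no antibiotic is stated, so genotype and antibiotic cannot be told apart. Balb/c males were purchased for the colony, and the sire of each pregnancy is not given in the sources used here. Each array held the RNA of 2 to 4 mice, so a replicate is a pool and the spread between single mice was not measured. The comparison addressed how this T cell fraction differs in pregnancy without interleukin 10.

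A ribosome joins a small subunit, which reads the messenger RNA, and a large subunit, which forms the peptide bond. Initiation factors bring the small subunit to the start codon, and elongation factors move the finished ribosome along. Ribosomal proteins are made in near equal amounts for assembly, and many of their messenger RNAs, like those of several factors, begin with a run of pyrimidines through which the kinase mTOR controls their translation. T cells raise ribosome production when they leave rest and grow before division.

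The medians of the arrays over all genes tested ran from 6.97 to 7.12 on the log2 scale. The second IL10-/- array and the fourth IL10+/+ array differed from the rest, with interquartile ranges of 2.15 and 2.17 against 2.32 to 2.58 and with scores of 16.4 and 17.8 on a first principal component that held 31.1% of the variance, where the others ran from -13.2 to -2.8. Of 12 T cell markers, 4 were measured, and their mean ran from 10.95 to 11.03 in the IL10-/- arrays and from 10.91 to 11.03 in the IL10+/+ arrays. Of 10 regulatory T cell markers, Ikzf2 and Ctla4 were measured, with a mean of 11.06 to 11.39 in IL10-/- and 11.34 to 11.48 in IL10+/+, and the defining gene Foxp3 was not analysed here. Markers of macrophages and monocytes (4 of 11 measured, 2 higher in IL10-/-, median difference 0.02), of stroma (5 of 8, 0 higher, -0.10), of CD8 and NK cells (2 of 7, 1 higher, 0.11) and of red cells (1 of 5, higher by 0.10) held no gene that passed the test. Limma called 2 genes over the whole table, Ctse, a protease gene (log2 difference 2.84), and Efcab2 (1.35), both higher in IL10-/-, which is 0.0286% of the genes tested.

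Promoters of 23 of the 31 genes were read from RefSeq, assembly GRCm38.p6, as 300-base windows that reach 250 bases before and 50 after each annotated start. Rpl7, Rpl8, Rpl30, Rps29, Eef1d, Eif3e, Eif3h and Npm1 have no entry. The sequences below show 60 bases before to 20 bases after the start. They are given for the pair of ribosomal proteins with the largest genotype differences and a pair with almost none in the probe sets used. Also shown are the 3 initiation factors that varied most between pools, and Tpt1. Capitals mark CCGGAAG on either strand, the core bound by factors of the ETS family, and runs of at least 8 pyrimidines on the gene's strand that reach into the stretch from 10 bases before to 40 after the start.
Rps7, chr12:28635934-28636013, - strand: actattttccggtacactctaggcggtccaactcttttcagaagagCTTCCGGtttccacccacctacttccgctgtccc
Rpl37, chr15:5116553-5116632, + strand: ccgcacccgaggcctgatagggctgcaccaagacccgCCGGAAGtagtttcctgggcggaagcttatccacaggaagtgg
Rpl38, chr11:114668520-114668599, + strand: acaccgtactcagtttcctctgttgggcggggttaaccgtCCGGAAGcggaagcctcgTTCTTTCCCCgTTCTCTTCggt
Rpl41, chr10:128549149-128549228, - strand: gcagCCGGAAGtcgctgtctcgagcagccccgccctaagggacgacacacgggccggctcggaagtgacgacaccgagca
Eif3l, chr15:79075163-79075242, + strand: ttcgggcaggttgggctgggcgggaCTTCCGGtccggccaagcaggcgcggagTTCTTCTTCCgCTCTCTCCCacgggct
Eif3d, chr15:77970805-77970884, - strand: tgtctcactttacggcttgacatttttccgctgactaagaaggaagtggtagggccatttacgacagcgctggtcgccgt
Eif4a1, chr11:69672404-69672483, - strand: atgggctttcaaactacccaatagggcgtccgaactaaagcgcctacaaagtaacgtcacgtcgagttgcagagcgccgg
Tpt1, chr14:75845196-75845275, + strand: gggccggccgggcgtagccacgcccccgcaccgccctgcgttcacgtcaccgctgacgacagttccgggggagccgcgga

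CCGGAAG on either strand was present in 11 of the genes' 27 promoter windows (40.7%), against 8.86% of all 32851 windows of the same length. It lay in 8 of 19 windows of ribosomal proteins and in 2 of 6 windows of factors. A pyrimidine run of the kind in capitals was present in 13 of 19 windows of ribosomal proteins (68.4%) and 2 of 6 of factors, against 23.1% of all windows. TATAAA on the gene's strand was found in 0 of the 19 ribosomal protein windows and in that of Eef2, against 8.32% of all windows. Rps7 and Rpl37, with the largest genotype differences of the ribosomal proteins, and Rpl38 and Rpl41, with small ones, all hold CCGGAAG. Rps15, which differed by 0.36, and Rps12, by 0.02, do not. It was found in 8 of the 15 ribosomal protein genes with an entry. None of these differences passed the test. That of Rpl41 was read from a probe set that, by its numbered neighbours, lay elsewhere on chromosome 10. The probe set beside the Rpl41 gene differed by 0.25. The match in Eif3d lies further upstream than the bases shown. The pyrimidine runs of Rps7 and Rpl37 begin after the last base shown. These matches describe letters only and show no binding.

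None of the 31 translation genes passed limma's test between IL10-/- and IL10+/+ (0 called, where 0.0286% of all genes were). The smallest adjusted p among them was 0.866, for Rps15. At an unadjusted p under 0.05 limma counted 4 of the 31, Rps7, Rps15, Rps23 and Rpl30, all higher in IL10-/-, where 3.19% of all genes were higher and 1.59% lower at that level, and an equal-variance linear model counted 3. The log2 differences ran from -0.29 for Eif3l to 0.54 for Rps7, with a median of 0.08 against 0.00 over all genes. The difference was above 0 for 24 of the 31 genes, against 50.8% of all genes. Genes of one family share arrays and can share probes, so these counts are a description.

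**Figure D1:**
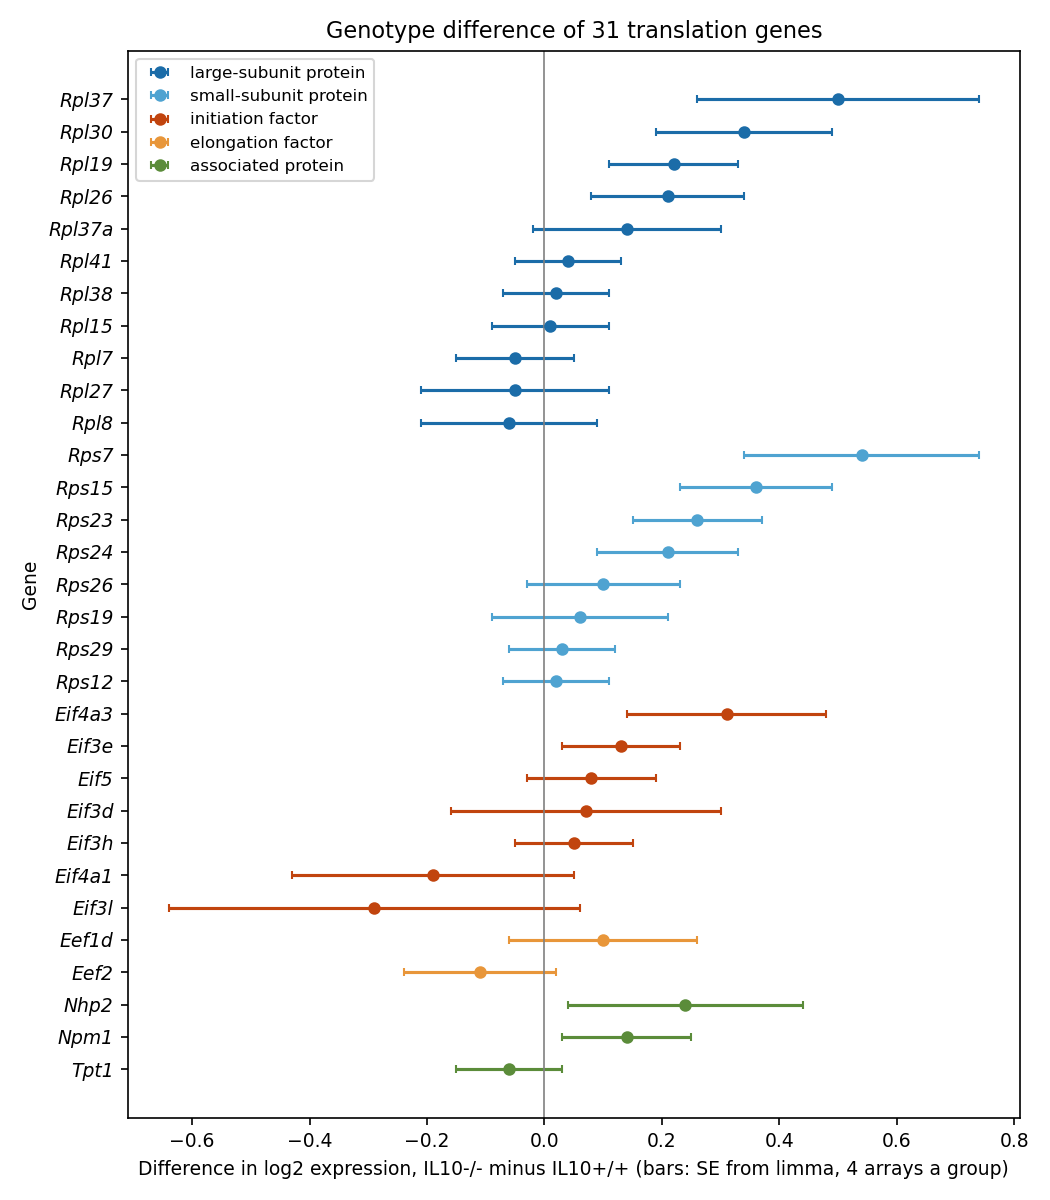
Difference in log2 expression (horizontal axis, IL10-/- minus IL10+/+) of the 31 genes (vertical axis), coloured by role, with bars for the SE from limma over 4 arrays a group. The small-subunit proteins all lie above 0, from 0.02 for Rps12 to 0.54 for Rps7, and the initiation factors lie on both sides, from -0.29 for Eif3l to 0.31 for Eif4a3.

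For the small subunit 8 of 8 differences were above 0 (median 0.16), and none passed the test over all genes. The count was 7 of 8 without IL10-/- replicate 3, without IL10+/+ replicate 1 or without IL10+/+ replicate 4. With each array centred on its own median it was 8 of 8, with a median of 0.13. Rps7, which takes part in making the small subunit's ribosomal RNA, read 8.46, 8.38, 8.87 and 8.62 in IL10-/- replicates 1 to 4 and 8.13, 8.55, 8.01 and 7.51 in IL10+/+. The groups overlapped because IL10+/+ replicate 2 lay above IL10-/- replicates 1 and 2. The IL10-/- mean was 8.59 ± 0.22 and the IL10+/+ mean 8.05 ± 0.43 (SD, n = 4 each), a difference of 0.54 (SE 0.20; limma, adjusted p = 0.873). The lowest array, IL10+/+ replicate 4, weighed on it, and without that array the difference was 0.35.

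Rps15, a protein of late small-subunit assembly, read 7.34, 7.33, 7.36 and 7.38 in IL10-/- and 7.15, 6.93, 7.24 and 6.63 in IL10+/+. All IL10-/- arrays lay above all IL10+/+ arrays, and the spread was almost wholly on the IL10+/+ side. The mean of its probe set over 8 arrays, 7.17, was close to the median level of 7.04 over all genes tested. Averages of 7.35 ± 0.02 and 6.99 ± 0.27 (SD, n = 4 each) gave a difference of 0.36 (SE 0.13; limma, adjusted p = 0.866), and 0.24 without IL10+/+ replicate 4. Rps23, which sits at the decoding centre, differed by 0.26, and Rps24 by 0.21. The groups overlapped for both. Rps12 was the small-subunit gene with the smallest difference, at 12.95, 12.92, 12.94 and 12.98 in IL10-/- and 12.84, 13.01, 12.97 and 12.87 in IL10+/+. Its difference was 0.02 (SE 0.09). Rps26, Rps29 and Rps19, a gene mutated in Diamond-Blackfan anaemia, differed by 0.10, 0.03 and 0.06.

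Among the 11 large-subunit proteins 8 differences were positive and 3 negative, with a median of 0.04. Rpl30 was the other gene without overlap between the groups, so that 2 of 31 genes lay wholly higher in IL10-/- and 0 wholly lower, where 1.83% and 1.09% of all genes did. Rpl30, a protein at the junction of both subunits, read 7.06, 7.08, 7.10 and 7.68 in IL10-/- and 7.00, 6.70, 7.00 and 6.85 in IL10+/+. The gap between the groups was narrow and IL10-/- replicate 4 stood well above the rest. This probe set, with a mean of 7.06, also lay at the median level over all genes (percentile 50.3). Averages of 7.23 ± 0.30 and 6.89 ± 0.14 (SD, n = 4 each) gave a difference of 0.34 (SE 0.15; limma, adjusted p = 0.999) that came to 0.19 without IL10-/- replicate 4.

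Rpl37, a small zinc-binding protein, had the largest difference of the large subunit and the widest spread of all ribosomal proteins. It read 8.11, 8.34, 8.34 and 8.46 in IL10-/- and 7.07, 7.99, 8.45 and 7.73 in IL10+/+. The IL10+/+ pools were widely scattered, and their replicate 3 lay above 3 of the 4 IL10-/- arrays. The difference of 0.50 (SE 0.24; limma, adjusted p = 0.999) was 0.25 without IL10+/+ replicate 1. Besides Rpl30, Rpl19 and Rpl26 differed by 0.22 and 0.21, and Rpl37a by 0.14. Rpl37a was low in a single pool, with 10.33 in IL10+/+ replicate 4 against 10.97 to 11.15 in the other 7 arrays, and its difference was -0.04 without that pool.

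**Figure D2:**
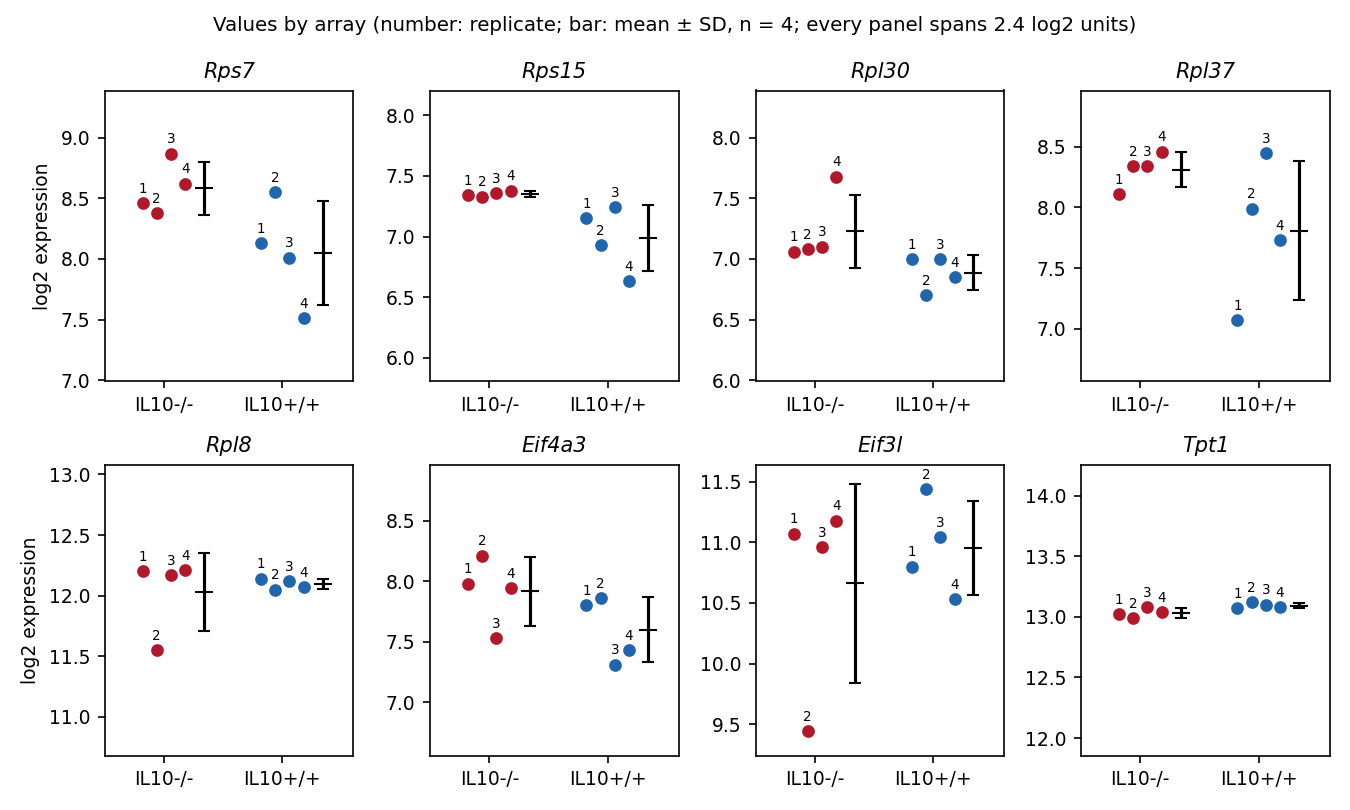
Log2 expression (vertical axis) of 8 genes in each array, by genotype (horizontal axis), with the replicate number above each point and the mean ± SD (n = 4) beside it; each panel covers the same span. Rps15 and Rpl30 show no overlap between genotypes, Rpl8 and Eif3l are low in IL10-/- replicate 2, and Tpt1 stays between 12.99 and 13.12 in all arrays.

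The other large-subunit genes differed little between genotypes. Rpl41, the shortest ribosomal protein, read 13.07, 13.08, 13.05 and 13.07 in IL10-/- and 13.06, 12.99, 13.05 and 13.02 in IL10+/+, with a difference of 0.04 (SE 0.09). This holds for the probe set used, and the one beside the gene differed by 0.25. Rpl38, Rpl15, Rpl7 and Rpl27 differed by 0.02, 0.01, -0.05 and -0.05. Rpl8, a protein near the peptide-forming centre, had the most negative value of the ribosomal proteins, at -0.06 (SE 0.15). It read 12.20, 11.55, 12.17 and 12.21 in IL10-/- and 12.14, 12.05, 12.12 and 12.07 in IL10+/+. Its sign came from 1 low pool, since without IL10-/- replicate 2 the difference was 0.10.

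The 9 factors held 6 positive and 3 negative differences, with a median of 0.07, and none had an unadjusted p under 0.05. Eif4a3, the helicase of the exon junction complex, was the most positive. It read 7.98, 8.21, 7.53 and 7.94 in IL10-/- and 7.80, 7.86, 7.31 and 7.43 in IL10+/+, and the groups overlapped. Averages of 7.91 ± 0.28 and 7.6 ± 0.27 (SD, n = 4 each) gave a difference of 0.31 (SE 0.17; limma, adjusted p = 0.999). Its relative Eif4a1, the helicase that opens the start of messenger RNAs for the small subunit, had the opposite sign, at -0.19 (SE 0.24), and it was -0.42 without IL10+/+ replicate 4 and -0.05 without IL10-/- replicate 2. Eif4a1 was lowest in IL10+/+ replicate 4 (11.14) and IL10-/- replicate 2 (11.24) and lay between 11.58 and 12.24 in the other arrays.

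Eif3d, Eif3e, Eif3h and Eif3l encode subunits of eIF3, the large scaffold of initiation. Eif3l read 11.07, 9.44, 10.96 and 11.18 in IL10-/- and 10.80, 11.44, 11.04 and 10.53 in IL10+/+. The value of IL10-/- replicate 2 lay far below the other 7 arrays. The difference of -0.29 (SE 0.35; limma, adjusted p = 0.999) rested on that pool and was 0.12 without it. Eif3d, the subunit that can bind the messenger RNA cap, differed by 0.07, but by -0.04 without IL10+/+ replicate 4 and by 0.31 without IL10-/- replicate 2. Eif3e differed by 0.13. Eif3h was the steadiest, at 12.43, 12.23, 12.26 and 12.44 in IL10-/- and 12.32, 12.33, 12.35 and 12.15 in IL10+/+, with a difference of 0.05 (SE 0.10). Eif5, which triggers GTP hydrolysis at the start codon, differed by 0.08.

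The 2 elongation factors pointed in different directions. Eef2, which moves the ribosome on by a codon, read 12.33, 11.78, 12.19 and 12.24 in IL10-/- and 12.36, 12.28, 12.23 and 12.12 in IL10+/+, a difference of -0.11 (SE 0.13). Without the low IL10-/- replicate 2 this became 0.0039. Eef1d, part of the complex that recharges the tRNA-delivering factor, read 11.21, 10.68, 11.08 and 11.29 against 11.21, 10.88, 10.67 and 11.07, a difference of 0.10 (SE 0.16). It was 0.23 without IL10-/- replicate 2 and 0.0071 without IL10+/+ replicate 3.

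Of the associated proteins, Nhp2, a core protein of the particles that guide pseudouridylation of ribosomal RNA, read 9.80, 9.0, 9.98 and 9.96 in IL10-/- and 9.57, 9.43, 9.49 and 9.27 in IL10+/+. Of its IL10-/- arrays, 3 lay above every IL10+/+ array and replicate 2 lay below them all. Its difference was 0.24 (SE 0.20; limma, adjusted p = 0.999) and was 0.47 without that replicate, 0.14 without IL10-/- replicate 3 and 0.15 without IL10-/- replicate 4. Npm1, a nucleolar chaperone of ribosome assembly, differed by 0.14. Tpt1, the translationally controlled tumour protein, read 13.02, 12.99, 13.08 and 13.04 in IL10-/- and 13.07, 13.12, 13.10 and 13.08 in IL10+/+, a difference of -0.06 (SE 0.09).

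Ribosomal proteins and factors were set side by side by the mean deviation of each family from its genes' means over all 8 arrays. For the 19 ribosomal proteins this was 0.04, -0.03, 0.13 and 0.16 in IL10-/- and -0.09, -0.07, -0.01 and -0.14 in IL10+/+, with group means of 0.08 ± 0.09 and -0.08 ± 0.06 (SD, n = 4 each). Here 3 of 4 IL10-/- pools lay above every IL10+/+ pool. For the 9 factors it was 0.13, -0.31, 0.08 and 0.13 against 0.01, 0.11, 0.02 and -0.18, with means of 0.01 ± 0.21 and -0.01 ± 0.12, so the genotypes overlapped widely. The medians of the genotype differences were 0.10 for ribosomal proteins and 0.07 for factors. This gap of 0.03 ran from -0.03 to 0.12 as single arrays were left out. It was 0.11 with Rpl41, Rpl15 and Rps19 left out, the 3 genes whose probe set used lay elsewhere than the gene. By the family means the gap was 0.14, and single arrays ran from -0.18 in IL10+/+ replicate 2 to 0.28 in IL10-/- replicate 2. No test was made of either gap. The families also differed in signal level. Of the 19 ribosomal proteins, 10 had a mean under 9, with a median difference of 0.24, and 6 a mean of 12 or more, with 0.02. Eif4a3 was the only factor under 9, at 7.76, and differed by 0.31. The part of signal level in the gaps was not tested. Positive differences made up 16 of 19 ribosomal proteins, and 14 of 19 after centring each array on its median, against 6 of 9 factors in both settings. Markers of B cells had differences of the same sign, and 0 of them passed the test. Of 11 such genes 6 were measured and 6 were higher in IL10-/-, with a median of 0.15. Their mean was 7.94 to 8.11 in the IL10-/- arrays and 7.72 to 7.98 in the IL10+/+ arrays. The brightest, Ighm, was lowest in IL10-/- replicate 2 (11.47) and next in IL10+/+ replicate 4 (11.67). Cr2 (7.08) and Ebf1 (6.92) were instead highest in IL10-/- replicate 2. The part of these markers in the ribosomal protein values was not tested. In such sorted bulk samples a change in the share of a cell type and a change of RNA per cell cannot be told apart.

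For 19 of the 31 genes the difference between genotypes was smaller than the SD between pools of one genotype. The same count over all genes was not made, so this does not set the 31 genes apart from others. The SD within genotype had a median of 0.19 over the 31 genes, 0.18 over the ribosomal proteins and 0.25 over the factors, against 0.18 over all genes. It was largest for Eif3l (0.64), Eif4a1 (0.43), Rpl37 (0.42) and Eif3d (0.40), and smallest for Rpl41 (0.02), Rpl38 (0.03) and Tpt1 (0.03). IL10-/- replicate 2 was the lowest of the 8 arrays for 8 of the 31 genes, or 25.8%, and for 13.4% of all genes. IL10+/+ replicate 2 was the lowest for as many, 8 of the 31 genes (25.8%), of which 7 were among the 19 ribosomal proteins. It held 19.4% of the lowest values over all genes.

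IL10-/- replicate 2 lay below the mean of its genotype for 24 of the 31 genes, by 0.32 on average over the factors and 0.11 over the ribosomal proteins. Of all genes, 2881 of 6986 lay below in that pool, but 768 of the 1215 at a level from 9 to 12 and 35 of the 47 at 12 or more did. Most of the 31 genes are at those levels. The deviation was -1.22 for Eif3l, -0.70 for Eif3d, -0.68 for Nhp2, -0.49 for Rpl8 and -0.42 for Eif4a1. Eif4a3, at 0.30, Rpl19 and Rps24, both at 0.15, and Eif5, at 0.10, went the other way in that pool. IL10+/+ replicate 4, the other array with a narrow range of values, deviated by -0.71 for Eif4a1, -0.54 for Rps7, -0.54 for Rpl37a, -0.42 for Eif3l and -0.34 for Eif3d. Eif3l, Eif3d and Eif4a1 were thus low in both. Of all genes with a level from 9 to 12, the median deviated by -0.08 in IL10-/- replicate 2 and -0.06 in IL10+/+ replicate 4. The lowest of them deviated by -1.24 and -1.45. The 11 genes of the set at that level had medians of -0.32 and -0.13. The genes named here were picked for their low values in these arrays. Macrophage and monocyte markers had their highest mean in IL10-/- replicate 2, at 7.69, where the IL10+/+ arrays ran from 7.26 to 7.36. The markers did not move alike. Lyz2 read 8.20 there against 6.70 to 7.27 elsewhere, and Fcgr3 7.23 against 6.98 to 7.14. Cd68 read 8.58, beside 8.57 in IL10+/+ replicate 2, and Lyz1 6.74, under 7.36 in IL10+/+ replicate 1. Of all 5724 genes under 9, 3646 lay above their genotype mean in IL10-/- replicate 2. The part of array quality and of these markers in the low values was not tested. Without both arrays the differences were -0.02 for Eif3l, 0.19 for Eif3d, -0.29 for Eif4a1, 0.41 for Nhp2 and 0.42 for Rps7, and 0 of the 31 genes passed.

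**Figure D3:**
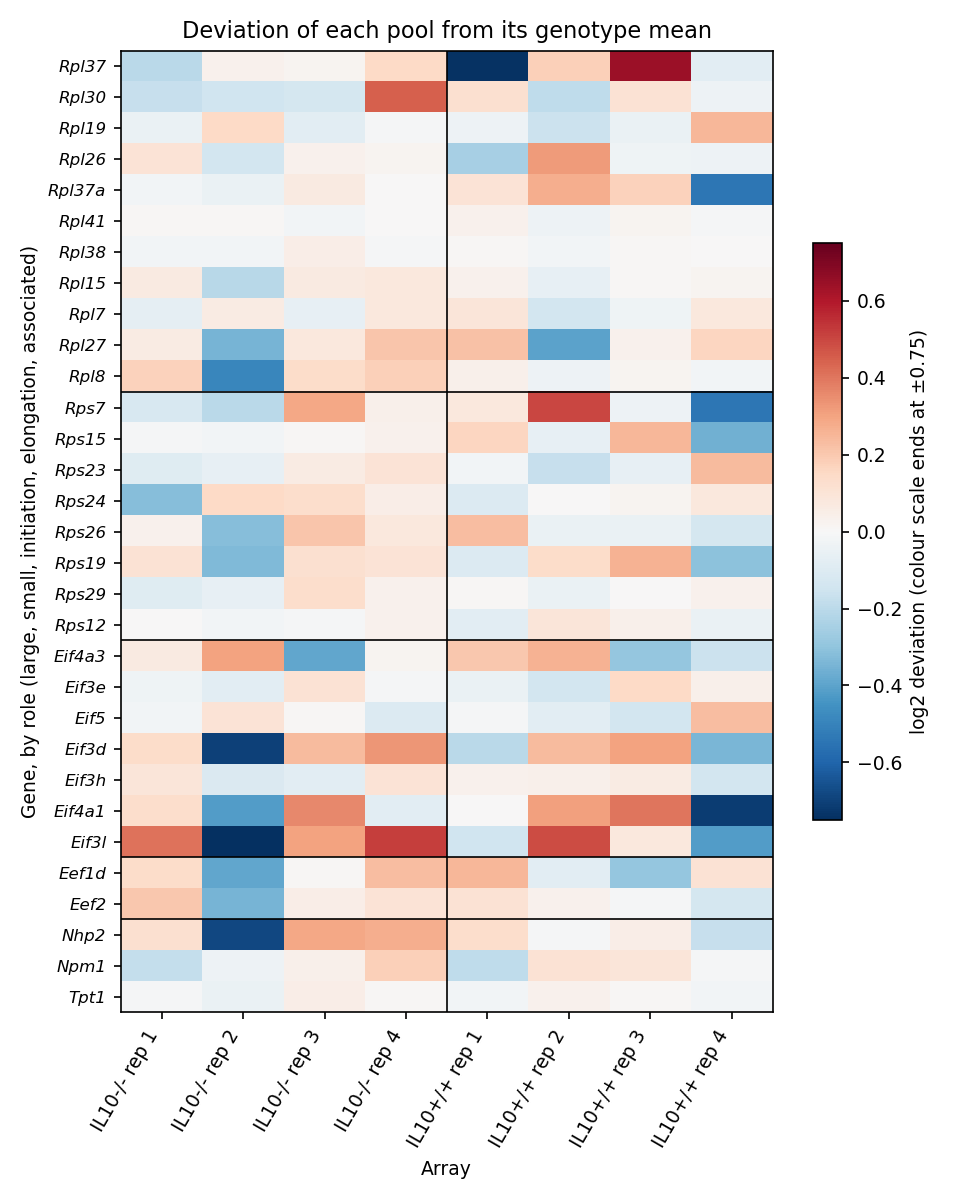
Deviation of each array (horizontal axis) from the mean of its own genotype for the 31 genes (vertical axis, ordered by role and then by genotype difference), on a log2 colour scale from blue (below) to red (above), where values past the ends of the scale take the end colour. IL10-/- replicate 2 is below its genotype mean for 24 of 31 genes, most for Eif3l at -1.22, and IL10+/+ replicate 4 most for Eif4a1 at -0.71.

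The size of a genotype difference went with the brightness of the probe set. The 9 genes with a mean of 12 or more, 6 of them ribosomal proteins, had means from 12.07 to 13.06. The highest value of any gene on the arrays was 13.08 to 13.13. Differences of these 9 ran only from -0.11 to 0.06, with a median of 0.02. All 47 genes tested at that level differed by between -0.21 and 0.20, with a median within-genotype SD of 0.09 against 0.18 over all genes. The 11 genes with a mean from 9 to 12 had a median difference of 0.10. The 11 genes under 9, 10 of them ribosomal proteins, had a median of 0.26 and 9 positive differences, against a median of 0.00 and 49.5% positive among the 5724 genes at that level. The 4 genes with an unadjusted p under 0.05 were all under 9. These bands were chosen after the values were seen.

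**Figure D4:**
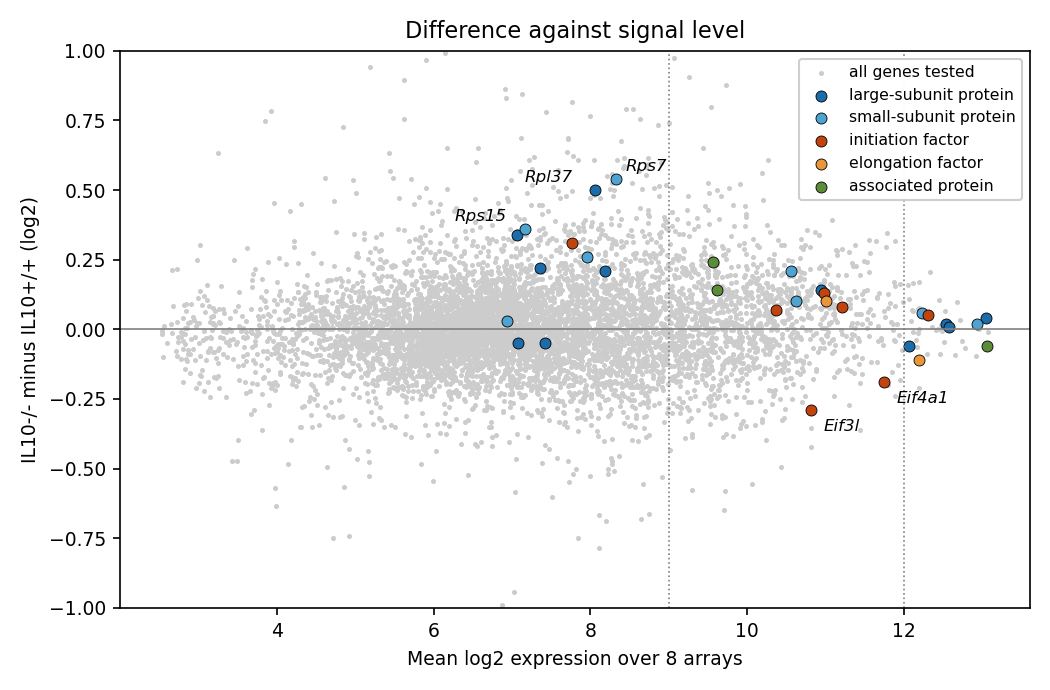
Genotype difference in log2 expression (vertical axis, IL10-/- minus IL10+/+) against the mean log2 expression over 8 arrays (horizontal axis) for the 31 genes by role and for all genes tested (grey), with dotted lines at 9 and 12; 12 genes with a difference beyond 1 in either direction fall outside the plot. The 9 genes at 12 or more lie between -0.11 and 0.06, and Rps7, Rpl37 and Rps15 lie highest at levels under 9.

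For Rpl41 and Rpl30 the probe sets of one gene gave different values. Rpl41 had 4 probe sets. Judged by the named probe sets numbered next to it, the one used lay elsewhere on chromosome 10 than the gene itself, and 2 others lay on chromosomes 13 and 14. The probe set beside the Rpl41 gene read 9.50 in IL10-/- and 9.24 in IL10+/+, a difference of 0.25, against 0.04 for the one used. Rpl15 was likewise read from a probe set among genes of chromosome 12, although the gene lies on chromosome 14, and Rps19, a gene of chromosome 7, from 2 probe sets among genes of chromosome 14 with identical values in all arrays. Ribosomal protein genes have many processed copies in the genome, so values for these genes may include copies. With those 3 genes left out, the median of the ribosomal proteins was 0.18 rather than 0.10. The set beside the Rpl41 gene was not put in its place. The sets used for all 3 genes had a mean of 12 or more, and the part of signal level in this rise was not tested. Rpl30 differed by 0.34 in its own dim probe set, and read 12.86 in both groups in a bright one shared with Gm12191. Another bright set shared with several loci differed by 0.02, and one of middle level, shared with Gm7429 and Gm6109, by 0.25 (9.69 against 9.44). Both Tpt1 probe sets differed by -0.06, and the 2 of Eif4a1 by -0.19 and -0.03.

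Other genes of translation were taken from lists of which only a share was measured, and limma called 0 of their genes. Of 8 further ribosomal protein genes measured among 62, 5 were higher in IL10-/- with a median of 0.01, and Rpl9 had the smallest p among them with a difference of 0.30 (SE 0.18). Of 7 other initiation factors, from a list of 40, 4 were higher (median 0.00; Eif5b at 0.15). The list of 22 other elongation and termination factors also holds genes such as Btf3 and Naca, which are neither. Of its 8 measured genes, 6 were higher (median 0.10). Btf3 is part of the complex that meets nascent chains at the ribosome. It read 9.24, 9.21, 9.25 and 9.27 in IL10-/- and 9.14, 8.98, 8.89 and 8.98 in IL10+/+, without overlap. Its difference was 0.25 (SE 0.09, limma adjusted p = 0.873). Of 6 cytosolic aminoacyl-tRNA synthetase genes, from 22, 4 were higher (median 0.07; Farsb at 0.19), and of 42 ribosome biogenesis genes, from 104, 25 were higher (median 0.03), with the rRNA methyltransferase gene Dimt1 at 0.33.

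Of 16 genes measured from a list of 38 on mTOR and eIF2 kinase control, 5 were higher in IL10-/- (median -0.05). This list also holds Myc, Max and Rps6ka5. Larp4, a binder of poly(A) tails, differed by 0.21. Of 5 snoRNA host genes, from 22, 3 were higher (median 0.20), with Snhg6 at 0.20. The mitochondrial ribosomal proteins, encoded in the nucleus, had 20 of 25 genes higher and a median of 0.12, beside 16 of 19 and 0.10 for the cytosolic ones described above. Among them Mrps23 read 9.0, 8.60, 9.15 and 8.88 in IL10-/- and 8.57, 8.46, 8.25 and 8.09 in IL10+/+ without overlap (difference 0.57, SE 0.15; limma, adjusted p = 0.624). Of 4 annotated ribosomal protein pseudogenes 2 were higher (median -0.05), and Rps15a-ps6 differed by 0.69 (SE 0.25; limma, adjusted p = 0.873).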

How the data were processed

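The deposited values are log2 expression values. Per the labels' design text, the authors ran Partek Genomics Suite on the array scans with the background step of RMA, Partek's correction for GC content, and the mean of each set's probes. Affymetrix Expression Console is also named, per the submitters' processing notes. Their versions, like the build behind the probe sets, were not given in the sources used here. The number of arrays limits the precision.

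Of 16378 probe sets, 7358 were annotated with 1 gene, 456 with several and 8564 without any. Entrez identifiers gave current RefSeq symbols for 7310, and 6986 genes remained. Where RefSeq gave a location, 99.6% of genes lay on chromosomes 1 and 10 to 15. No filter on level was used. IL10-/- and IL10+/+ were compared with limma 3.58.1 in R 4.3.3 (lmFit and eBayes), with Benjamini-Hochberg adjustment over all 6986 genes at 0.05. The fit was tested on simulated data. A probe set counted as beside its gene where the median position of the 10 named probe sets on each side in number order lay within 5 Mb of it. Medians and counts over lists are descriptions without a test. Values were given by array for genes without overlap and, within each role, for the extremes of difference and of spread. Other named genes had no overlap or the smallest p in their list, or were picked once their values were known. The genes and lists were chosen with earlier results of these data known.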

Additional observations from a re-analysis of the deposited data

Results flagged for a closer look

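Of 62 groups of 4 arrays, 1 for each gene and genotype, 6 held an array far from the others. This used Dixon's criterion at the 95% level, where chance gives about 5% of groups. The share over all genes was not computed. Most flags fell in IL10-/- replicate 2, where 768 of all 1215 genes at a level from 9 to 12 lay below their genotype mean. So did 35 of the 47 at 12 or more. In IL10-/- replicate 2, Rpl15 read 12.37 against 12.65 to 12.66 in the other IL10-/- arrays, Rpl8 read 11.55 against 12.17 to 12.21, Rps19 read 11.94 against 12.36 to 12.38, and Eif3l read 9.44 against 10.96 to 11.18. In IL10-/- replicate 4, Rpl30 read 7.68 against 7.06 to 7.10. In IL10+/+ replicate 4, Eif3h read 12.15 against 12.32 to 12.35.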

How the results depend on the processing

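No gene of the set passed limma in any setting run, and the smallest adjusted p was 0.333, for Rps7 without IL10+/+ replicate 2. As single arrays were left out, the median difference ran from 0.04 to 0.16 over all 31 genes and over ribosomal proteins, and from 0.01 to 0.12 over factors. Genes without overlap between groups numbered 2 to 5 of the set, where the share over all genes was 4.61% to 6.84%, against 2.92% with all arrays. They numbered 7 with both unusual arrays (IL10-/- replicate 2 and IL10+/+ replicate 4) left out, where 10.7% of all genes had none, and 1 after median centring (2.85% of all genes). With the 3 genes left out whose probe set used lay elsewhere, a choice made after seeing the data, the median of ribosomal proteins moved to 0.18. Over the whole table the count of called genes was 1 to 4 with single arrays left out, and 1 with median centring, with array weights, without variance moderation, with the replicate block and with both unusual arrays left out. The labels do not say that a replicate number marks a shared day or batch. Deviations of same-numbered arrays correlated at 0.05, -0.32, 0.03 and -0.19 over genes. Those of differently numbered arrays ran from -0.29 to 0.46, the highest between the 2 unusual arrays. Whether same-numbered arrays shared a batch was not tested. With the replicate block, 1 gene was called in place of 2, Ctse, and the median over the 31 genes stayed at 0.08. Among the 14 genes given by array, signs turned in 6 cases. Of the other genes of the set, Rpl15, Rpl27, Rpl37a, Rpl38, Rps19, Rps29 and Eif3d changed sign in at least 1 setting. Rpl8 was 0.037 with array weights, 0.092 without both unusual arrays, and from -0.12 to 0.099 with single arrays left out, the last without IL10-/- replicate 2. Without that array Eef2 was 0.0039 (from -0.18 otherwise) and Eif3l 0.12 (from -0.46 otherwise). Rps12 was -0.0021 without IL10+/+ replicate 1 and up to 0.052 without another. The cause was not tested. The other 232 settings of genes given by array kept their sign and stayed uncalled.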

Other observations

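Probe sets that name several genes were kept out of the comparison. The one shared by Rpl23 and 2 unnamed loci read 8.58 ± 0.22 in IL10-/- and 8.22 ± 0.38 in IL10+/+ (SD, n = 4 each). The one shared by Rpl31, Tbc1d8 and Rpl31-ps12 read 9.35 ± 0.22 and 9.12 ± 0.11, and the one shared by Rpl36al, Rpl36a and Dnaaf2 read 9.68 ± 0.07 and 9.57 ± 0.14. Rpl37a shared a bright probe set with Mir682 that read 13.17 ± 0.03 and 13.14 ± 0.04.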
